A study of Mus musculus with 6 samples.

Results

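The p53 pathway genes described here are 33 genes chosen by name. They are Trp53, the regulators of its protein, the kinases that signal DNA damage to it, and genes listed as p53 or DNA damage targets. They were taken by symbol from a table of 27179 mouse genes, and all 33 had a row. The RNA came from cultured primary cells that the labels call satellite cells, the stem cells of muscle. As given below, it held far more of Myog and Myh3, genes of differentiating muscle cells, than of the satellite cell factor gene Pax7. The donors were C57BL/6 mice of wild-type genotype, the muscles were those of the hindlimb, and the labels call the cells ageing with no age given. Both groups were grown in DMEM with fetal bovine serum and bFGF and then received recombinant human MG53 (rhMG53), a membrane repair protein of striated muscle, or bovine serum albumin (BSA), the vehicle, for 72 h. Each group held 3 libraries, which the labels place in a batch named Day 3. The design calls them biological replicates but ties none to an animal or culture, so p-values measure only the spread between these libraries, which may be technical.

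p53 is a transcription factor that is made and destroyed continuously. The ubiquitin ligase MDM2, itself a p53 target, marks it for destruction, and MDM4 holds down its activity. After DNA damage the kinases ATM and CHK2 stabilise it, and it then raises genes that halt the cell cycle, repair DNA, adjust metabolism or start apoptosis. Much of this control acts on the protein, which RNA counts do not measure. In muscle, p53 and its targets have been studied in cell cycle exit during myoblast differentiation and in the loss of satellite cell function with age.

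No p53 pathway gene passed the test between rhMG53 and BSA. In edgeR's quasi-likelihood test, with p adjusted over all 13769 tested genes, 0 of 33 had an adjusted p under 0.05, where 0.0218% of all tested genes did. DESeq2 and limma voom also called 0 of 33, and called 0.0246% and 0.0218% of all genes they tested. At an unadjusted p under 0.05 there were 3 of 33 in edgeR (9.09%), beside 5.2% of all tested genes. DESeq2 gave 2 of 33, beside 1.77% of its 20350 tested genes, and limma voom 3 of 33, beside 5.16%. DESeq2 was run without the filter on low genes, so its share covers low genes that the other 2 shares leave out. The edgeR genes were Phlda3 and Gadd45a, with positive log2 fold changes (a direction and p that 2.98% of all tested genes had), and Btg2, with a negative one (2.22% of all tested genes). The count of 3 became 1 without BSA replicate 1, 1 without BSA replicate 2, 1 without rhMG53 replicate 2 and 5 without rhMG53 replicate 1. In these 4 fits 4.11%, 3.7%, 5.24% and 5.54% of all tested genes had such a p. The 33 genes were split between 17 positive and 16 negative log2 fold changes (51.5% positive, against 50.5% of all tested genes). Their median log2 fold change was 0.01, and that of all tested genes was 0.00142. The groups did not overlap in 4 of 33 genes (12.1%), beside 10.8% of all tested genes. Of the 4, Perp was higher with rhMG53 (as 5.94% of all tested genes were), and Btg2, Mdm2 and Epha2 were lower (as 4.83% of all tested genes were). The share of 12.1% is close to that of all tested genes.

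The intervals bound the size of the differences only against the spread between these libraries, which may be technical. For 31 of 33 genes the 95% interval of the difference lay within 1.5-fold in both directions, as it did for 79.0% of all tested genes. The exceptions were Perp and Ddb2, the 2 genes with the fewest counts. In 21 of 33 genes the difference between the group means was smaller than 1 pooled SD of the libraries. This was not counted over all tested genes, so it is not read as particular to the 33.

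**Figure D1:**
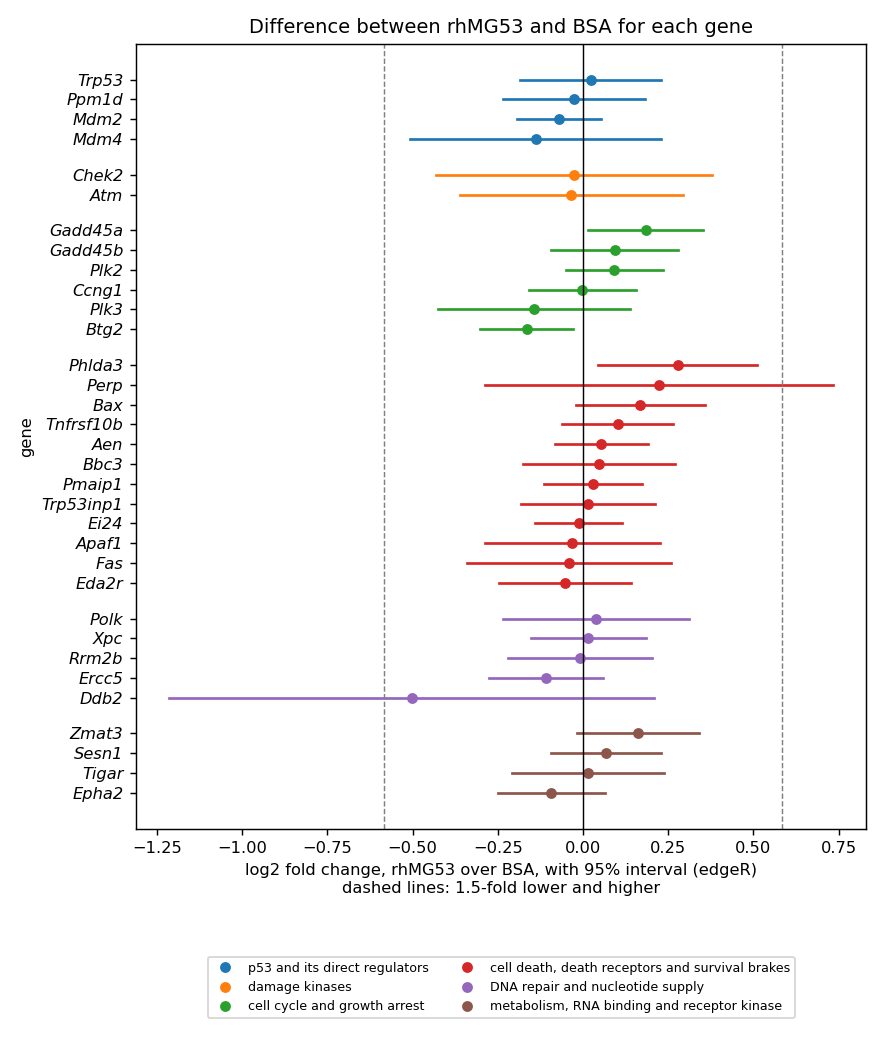
The log2 fold change of rhMG53 over BSA (horizontal axis) is plotted for each of the 33 genes (vertical axis), coloured by role, with points for the edgeR estimate, bars for its 95% interval and dashed lines at 1.5-fold. The bars of all genes but Perp and Ddb2 stay between the dashed lines, and those of Phlda3, Gadd45a and Btg2 do not reach 0.

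Total gene counts ran from 17374151 to 22738745 per library. The 7 skeletal muscle markers summed to 35943 to 37438 CPM (counts scaled to a common library total) in the BSA libraries and to 32865 to 37928 CPM in the rhMG53 libraries. Among them the satellite cell factor gene Pax7 averaged 9.23 CPM, and Myog and Myh3, genes of differentiating muscle cells, averaged 909.9 and 21426 CPM. Fibroblast markers summed to 1005 to 1249 CPM in the BSA libraries and 1151 to 1252 CPM in the rhMG53 libraries, with 4 of 5 above 1 CPM. None of the 4 endothelial, 5 leukocyte or 3 adipocyte markers averaged 1 CPM or more over the 6 libraries, although the leukocyte markers Cd68 and Cd14 passed it in some, with highest values of 1.39 and 1.28 CPM in rhMG53 replicate 2. The sums ran from 0.439 to 1.04 CPM for the endothelial, 1.496 to 3.00 CPM for the leukocyte and 0.288 to 0.748 CPM for the adipocyte markers. The 4 smooth muscle and pericyte markers summed to 106.9 to 123.8 CPM in the BSA libraries and 114.9 to 128.0 CPM in the rhMG53 libraries, with Cspg4 and Pdgfrb above 1 CPM. In such bulk RNA, fewer cells of a type and less RNA per cell cannot be told apart, and the part of the marker levels in the results was not tested.

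The 33 genes spanned a 495-fold range of level. Levels between genes are given as RPKM, which is CPM per kilobase of exon. Phlda3, whose protein blocks the survival kinase AKT at the membrane, and Ccng1, the cyclin G1 gene and an early p53 target, stood highest, at 197.6 ± 30.0 and 173.9 ± 9.69 RPKM (SD over 6 libraries). Their ranges overlapped, so their order is not resolved. Bax (79.8 ± 8.55 RPKM), Mdm2 (69.6 ± 2.52), Plk2 (59.1 ± 3.48), Gadd45a (56.2 ± 5.50) and Eda2r (53.4 ± 4.79) followed. These 7 genes were at 50 RPKM or more, and 12 of 33 were under 5 RPKM. For comparison, Cdkn1a, the p21 cell cycle inhibitor gene and best known p53 target, which is not among the 33, stood at 778.2 RPKM.

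Trp53 itself came eleventh, at 25.8 ± 2.45 RPKM, below several of its targets. The kinase genes Atm (1.79 ± 0.280 RPKM) and Chek2 (1.29 ± 0.165), the apoptosome gene Apaf1 (1.95 ± 0.214) and Mdm4 (2.19 ± 0.432) were near the bottom. Perp, a junction and cell death gene best known from epithelia, was at 0.633 ± 0.0761 RPKM and Ddb2, which recognises ultraviolet damage, was last at 0.399 ± 0.128. Along this order, 24 of the 32 neighbouring pairs had overlapping ranges over the 6 libraries. The 8 steps without overlap were those below Ccng1, Mdm2, Btg2, Trp53, Gadd45b, Sesn1, Epha2 and Chek2.

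**Figure D2:**
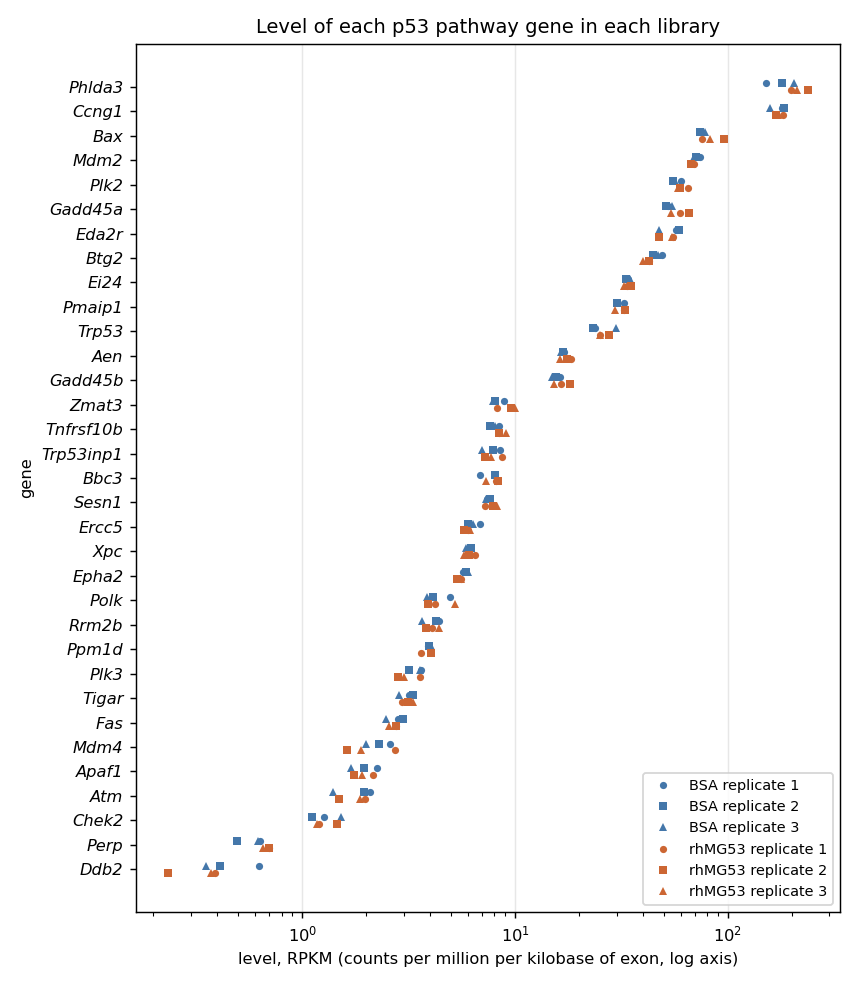
The level of each of the 33 genes (vertical axis, ordered by mean) is plotted in RPKM on a log axis, with 1 point per library, blue for BSA and orange for rhMG53. Blue and orange points lie together at nearly every level from Ddb2 at 0.399 RPKM to Phlda3 at 197.6 RPKM, and the gap between Ccng1 and Bax is the widest among the abundant genes.

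Promoter sequences were searched for the letters that p53 is known to bind. A p53 response element is a pair of 10-letter half-sites that read the same on both strands, with up to 13 bases between them. Windows from 250 bases before to 50 after each gene's start (RefSeq, GRCm38.p6) were found for 25 of the 33 genes, those without being Ddb2, Perp, Pmaip1, Rrm2b, Tnfrsf10b, Trp53inp1, Xpc and Zmat3. With at most 2 departures from the p53 consensus over 20 letters, both half-sites keeping their fixed C and G, 4 of 25 genes held an element (16.0%), and 1272 of 27025 genes with a window did (4.71%). A half-site without departure occurred in 10 of 25 (40.0%) and in 9.55% of all. The 25 genes were chosen as p53 pathway genes, so these shares are not a test of enrichment. A gene with several listed starts was counted by its best window. The limit of 2 departures was chosen after the matches were seen. A match is a description of letters and not a measured binding site. The 4 are printed because they let the same p53 letters be set beside the level and fold change of their genes, with the half-sites in capitals and each on the strand of its gene.
Ccng1: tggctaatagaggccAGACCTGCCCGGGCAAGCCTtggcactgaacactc
Gadd45a: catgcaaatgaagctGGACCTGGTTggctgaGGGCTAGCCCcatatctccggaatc
Bax: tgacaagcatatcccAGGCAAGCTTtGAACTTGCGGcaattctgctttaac
Sesn1: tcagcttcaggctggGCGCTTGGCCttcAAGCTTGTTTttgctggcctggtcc

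These stretches lie at chr11:40755447-40755496 on the minus strand for Ccng1, chr6:67037423-67037478 on the minus strand for Gadd45a, chr7:45467064-45467114 on the minus strand for Bax and chr10:41887238-41887290 on the plus strand for Sesn1, where it precedes the more downstream of its listed starts. The Ccng1 element has 1 departure and no spacer. It starts 195 bases before the start that its window was built on, which lies inside the gene span given below and not at its end. The other 3 have 2 departures each, with spacers of 6 bases in Gadd45a, 1 in Bax and 3 in Sesn1. None of the 4 genes passed the test, with a log2 fold change of -0.00199 (95% interval -0.16 to 0.16) for Ccng1, 0.18 (0.02 to 0.35) for Gadd45a, 0.17 (-0.02 to 0.36) for Bax and 0.07 (-0.09 to 0.23) for Sesn1. Phlda3 and Btg2 held no element in this window by the same limit, with nearest matches of 5 and 4 departures, which says only that these letters are not in these windows.

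Neither Trp53 nor any of the 3 genes of its direct regulators passed the test. Trp53 (gene ID 22059, chromosome 11, 69580348 to 69591873) was at 44.3, 43.6 and 55.4 CPM in BSA replicates 1 to 3 and at 46.9, 51.7 and 46.9 CPM in rhMG53 replicates 1 to 3. BSA replicate 3 was the highest of the 6 and the groups overlapped, with a log2 fold change of 0.02 (SE 0.0943, 95% interval -0.19 to 0.23, edgeR adjusted p = 0.995). Mdm2 (gene ID 17246, chromosome 10, 117688875 to 117710758) was at 233.1, 221.8 and 217.5 CPM in the BSA libraries and at 216.9, 211.0 and 213.0 CPM in the rhMG53 libraries. Every rhMG53 library was below every BSA library, by a margin of less than 1 CPM between the nearest libraries. Its log2 fold change was -0.07 (SE 0.0558, interval -0.19 to 0.05, edgeR adjusted p = 0.978).

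Mdm4, at 17.5 to 29.7 CPM, varied most among these 4, with rhMG53 replicate 1 highest and rhMG53 replicate 2 lowest (-0.14 on the log2 scale, interval -0.51 to 0.23). Ppm1d, the phosphatase that switches p53 signalling off again, ran from 10.5 to 11.7 CPM (-0.03, interval -0.24 to 0.18). Upstream of p53, Atm ran from 13.97 to 20.8 CPM (-0.03, interval -0.36 to 0.29) and Chek2 from 2.54 to 3.46 CPM (-0.03, interval -0.43 to 0.38). For Mdm4, Ppm1d, Atm and Chek2 these intervals are wider than that of Mdm2.

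Among the 6 growth arrest genes, Btg2 and Gadd45a were the 2 with an unadjusted edgeR p under 0.05, in opposite directions. This was 33.3% of the 6, beside 5.2% of all tested genes, and both are among the 3 such genes of the 33. Btg2, an antiproliferative cofactor that promotes the decay of messenger RNA (gene ID 12227, chromosome 1, 134074865 to 134079155), was at 134.8, 122.2 and 128.7 CPM in the BSA libraries and at 117.0, 117.3 and 109.7 CPM in the rhMG53 libraries. All 3 rhMG53 libraries were below all 3 BSA libraries. Group means were 128.6 ± 6.33 and 114.7 ± 4.29 CPM (SD, n = 3 each), and edgeR gave a log2 fold change of -0.17 (SE 0.0615) with an adjusted p of 0.940. Over the alternatives the log2 fold change of Btg2 ran from -0.20 to -0.13, and the lowest adjusted p was 0.557.

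Gadd45a, a stress sensor that binds PCNA and stress kinases (gene ID 13197, chromosome 6, 67035096 to 67037407), was at 64.0, 62.5 and 66.5 CPM in the BSA libraries and at 72.9, 80.4 and 66.0 CPM in the rhMG53 libraries. Replicates 1 and 2 of rhMG53 were above all BSA libraries, while rhMG53 replicate 3 was inside the BSA range. The means were 64.3 ± 2.03 and 73.1 ± 7.21 CPM (SD, n = 3 each), with a log2 fold change of 0.18 (SE 0.0761) and an edgeR adjusted p of 0.946. Without rhMG53 replicate 2, the highest library, the log2 fold change of Gadd45a was 0.11. The model of the noncoding gene E230016M11Rik overlaps Gadd45a but held 116 counts in all, against 7820 for Gadd45a.

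Its paralog Gadd45b was at 20.5 to 24.9 CPM over the 6 libraries, with a log2 fold change of 0.09 (interval -0.09 to 0.28). Ccng1 (gene ID 12450, chromosome 11, 40748552 to 40755309), the most counted of the 33, was at 629.8, 647.6 and 556.1 CPM in the BSA libraries and at 635.2, 589.1 and 606.6 CPM in the rhMG53 libraries. The BSA libraries held both its highest and its lowest value. The polo-like kinase genes Plk2 and Plk3, whose products act in stress checkpoints, stood far apart in counts. Plk2 was at 155.2 to 182.5 CPM (0.09, interval -0.05 to 0.23) and Plk3 at 6.70 to 8.62 CPM (-0.14, interval -0.42 to 0.14).

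**Figure D3:**
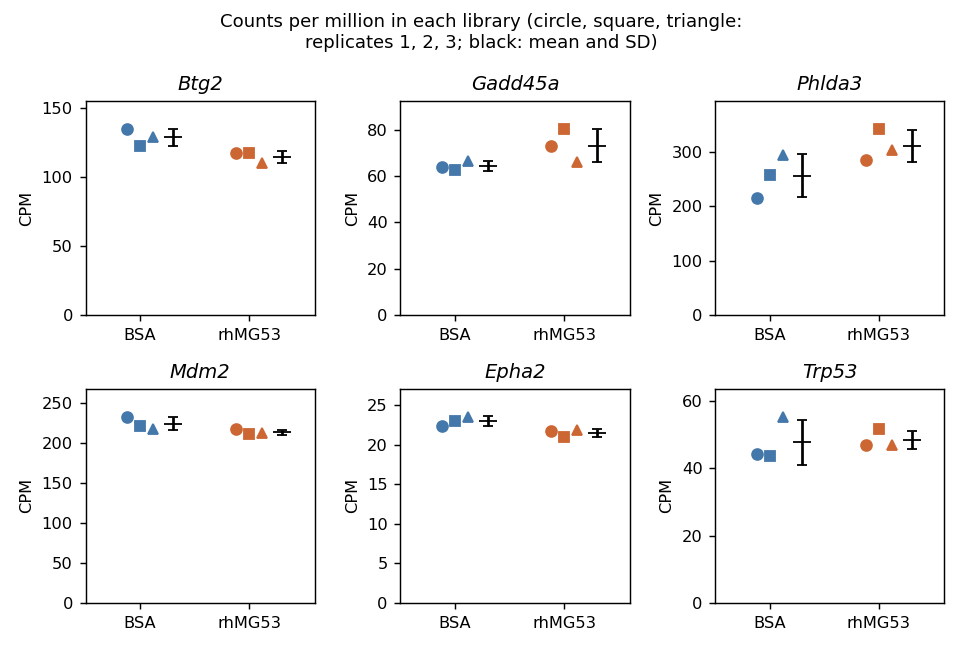
The level in CPM (vertical axes, from 0) is plotted by group for Btg2, Gadd45a, Phlda3, Mdm2, Epha2 and Trp53, with a symbol for each replicate and black bars for the mean and SD of 3 libraries. Groups are apart by narrow margins for Btg2, Mdm2 and Epha2, and overlap for Gadd45a, Phlda3 and Trp53.

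Of the 12 genes of cell death, death receptors and survival brakes, 8 had positive log2 fold changes and 4 negative, with a median of 0.04. Phlda3 had the largest difference (gene ID 27280, chromosome 1, 135766085 to 135769134), at 215.9, 258.7 and 294.6 CPM in the BSA libraries and 285.1, 342.9 and 304.3 CPM in the rhMG53 libraries. BSA replicate 3 was above rhMG53 replicate 1, so the groups overlapped, and the BSA libraries alone spread from 215.9 to 294.6 CPM. The means were 256.4 ± 39.4 and 310.8 ± 29.5 CPM (SD, n = 3 each), a 1.21-fold difference. Its log2 fold change was 0.28 (SE 0.106, interval 0.04 to 0.51, edgeR adjusted p = 0.946). Over the alternatives the log2 fold change of Phlda3 ran from 0.17, without BSA replicate 1, to 0.39, without BSA replicate 3, and the lowest adjusted p was 0.281.

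The genes of the mitochondrial route to apoptosis did not pass. Bax, which permeabilises the outer mitochondrial membrane, was at 63.9, 64.0 and 67.7 CPM in the BSA libraries and at 65.3, 83.3 and 71.2 CPM in the rhMG53 libraries (log2 fold change 0.17, interval -0.02 to 0.36, edgeR adjusted p = 0.965). Its highest value was again in rhMG53 replicate 2, without which the log2 fold change of Bax was 0.07, and rhMG53 replicate 1 was inside the BSA range. Of the genes of the BH3-only activators of this route, Bbc3 (PUMA) was at 12.4 to 15.04 CPM (0.05, interval -0.18 to 0.27) and Pmaip1 (NOXA) at 80.8 to 89.7 CPM (0.03, interval -0.12 to 0.17). Apaf1, which assembles the apoptosome, was at 14.1 to 18.6 CPM (-0.03, interval -0.29 to 0.23). Its gene model overlaps that of Ikbip, which held 4309 counts against 1851 for Apaf1, and the strand setting of the counting is not given.

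Among the receptor genes listed with cell death, Eda2r, the ectodysplasin A2 receptor gene, was the most abundant. It was at 272.9, 281.4 and 228.2 CPM in the BSA libraries and 264.6, 227.5 and 262.6 CPM in the rhMG53 libraries (-0.05, interval -0.25 to 0.14). Its low libraries were BSA replicate 3 and rhMG53 replicate 2. Tnfrsf10b, the mouse TRAIL receptor gene, was at 24.1 to 28.9 CPM (0.10, interval -0.06 to 0.26) and Fas at 4.45 to 5.37 CPM (-0.04, interval -0.34 to 0.26). Ei24, Aen and Trp53inp1, which encode a reticulum membrane protein, an apoptosis-linked nuclease and a p53 cofactor, had log2 fold changes of -0.01, 0.05 and 0.01.

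Perp (gene ID 64058, chromosome 10, 18845071 to 18857073) was at 1.24, 0.960 and 1.21 CPM in the BSA libraries and at 1.36, 1.36 and 1.28 CPM in the rhMG53 libraries, from 17 to 28 counts per library. All rhMG53 values were above all BSA values. Counting error alone is 20.6% of a library's value at this depth, and the log2 fold change of 0.22 had an interval of -0.29 to 0.73 (edgeR adjusted p = 0.983). The interval included 0 and reached beyond 1.5-fold in the higher direction, and the part of depth in this was not tested.

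The DNA repair and nucleotide supply genes showed no shared direction, with 2 of 5 positive and 3 negative. Ercc5 (XPG), a nuclease of nucleotide excision repair, was at 26.7, 23.6 and 24.9 CPM in the BSA libraries and at 23.4, 22.5 and 23.9 CPM in the rhMG53 libraries (-0.11, interval -0.28 to 0.06). The damage recognition gene Xpc was at 20.9 to 23.5 CPM (0.02, interval -0.15 to 0.18). Rrm2b, the p53-driven ribonucleotide reductase subunit gene, was at 16.6 to 20.1 CPM (-0.01, interval -0.22 to 0.20) and Polk, a translesion polymerase gene, at 16.5 to 22.3 CPM (0.04, interval -0.23 to 0.31).

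Ddb2 (gene ID 107986, chromosome 2, 91211545 to 91237132) was at 1.46, 0.960 and 0.825 CPM in the BSA libraries and at 0.909, 0.545 and 0.869 CPM in the rhMG53 libraries. This corresponds to 10 to 33 counts per library. BSA replicate 1 was the highest, and rhMG53 replicate 2 the lowest. Its log2 fold change of -0.50 was the largest in size of the 33 with all 6 libraries but had an interval of -1.21 to 0.21 (edgeR adjusted p = 0.973), and the counting error was 23.6% of a library's value. Without BSA replicate 1 the log2 fold change of Ddb2 was -0.20, smaller in size than that of Perp, and without rhMG53 replicate 2 it was -0.31. Its gene model overlaps that of Acp2, which held 3504 counts against 108 for Ddb2.

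The remaining genes act in metabolism, RNA binding and signalling. Epha2, an ephrin receptor kinase gene (gene ID 13836, chromosome 4, 141301221 to 141329384), was at 22.3, 22.995 and 23.5 CPM in the BSA libraries and at 21.8, 20.9 and 21.9 CPM in the rhMG53 libraries, and all rhMG53 libraries were below all BSA libraries. Its log2 fold change was -0.09 (SE 0.0711, interval -0.25 to 0.06, edgeR adjusted p = 0.976). Zmat3, a p53-induced zinc finger gene whose product binds RNA, was at 69.0, 63.0 and 61.7 CPM in the BSA libraries and at 64.2, 74.5 and 78.0 CPM in the rhMG53 libraries (0.16, interval -0.02 to 0.34). Replicate 1 of rhMG53 was inside the BSA range. Sesn1, an inhibitor of the growth kinase complex mTORC1, was at 28.7 to 32.7 CPM, and Tigar, which directs glucose into the pentose phosphate pathway, at 10.4 to 12.1 CPM, with log2 fold changes of 0.07 and 0.01.

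The 33 genes varied between libraries of the same group in a way that went with exon length. BSA replicate 3 held the lowest value of 10 of the 33 genes and the highest of 3, and rhMG53 replicate 2 held the lowest of 7 and the highest of 8. The other 4 libraries held the lowest value of 2 to 6 genes each and the highest of 3 to 8, with 8 in BSA replicate 1. The 6 genes with over 5000 bases of exon (Mdm4, Atm, Apaf1, Zmat3, Trp53inp1 and Aen) had a median log2 deviation from their group mean of -0.17 in BSA replicate 3 and -0.13 in rhMG53 replicate 2, of 0.16 and 0.15 in replicate 1 of BSA and of rhMG53, and of 0.01 and -0.02 in BSA replicate 2 and rhMG53 replicate 3. The 8 genes with under 2000 bases, among them Phlda3, Gadd45a, Bax and Trp53, had medians of 0.06 and 0.11 in BSA replicate 3 and rhMG53 replicate 2 and of -0.06 to -0.01 in the other 4 libraries. Across the 33 genes, which share these libraries and their depth, Spearman's rho between deviation and exon length was -0.66 in BSA replicate 3, -0.71 in rhMG53 replicate 2 and 0.31 to 0.55 in the other 4. It had the same sign over the 12953 tested genes with a length, at -0.37, -0.52 and 0.0952 to 0.42. Deviations within a group add up to 0, so the libraries are not independent points.

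**Figure D4:**
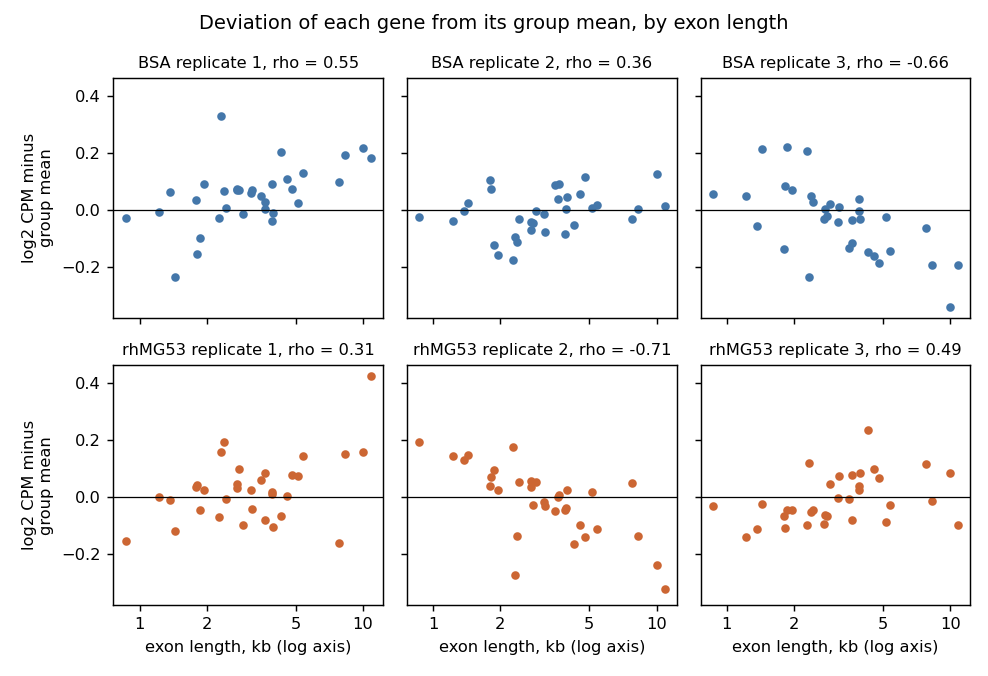
The deviation of each of the 33 genes from its group mean in log2 CPM (vertical axes) is plotted against exon length in kilobases on a log axis, with 1 panel per library and Spearman's rho above it. Points slope down in BSA replicate 3 (-0.66) and rhMG53 replicate 2 (-0.71) and up in the other 4 panels.

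Each group held 1 library that sloped down, and Phlda3 and Gadd45a, with 1435 and 1223 bases of exon, are among the short genes. With a trend on exon length removed from each library, a setting added after the data were seen, the log2 fold changes were 0.24 for Phlda3, 0.14 for Gadd45a and -0.18 for Btg2. Without both BSA replicate 3 and rhMG53 replicate 2, also added afterwards, they were 0.31, 0.13 and -0.18. In the first setting 4 of 33 genes, beside 6.44% of the 12953 genes tested there, had an unadjusted p under 0.05. In the second setting 2 of 33 did, beside 6.85% of all tested genes. The lowest edgeR adjusted p was 0.281, for Phlda3 in the second setting. No p53 pathway gene had an adjusted p under 0.05 in either setting.

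Further genes of the pathway were counted from lists drawn up by function, and none of their members passed in edgeR (adjusted p at least 0.935), DESeq2 or limma voom. The lists, like the 33 genes, were chosen with earlier results of these data known. Their counts are therefore descriptions and not a test of p53 activity. Of 23 tested p53 targets outside the 33, 18 had positive and 5 negative log2 fold changes (78.3% positive, against 50.5% of all tested genes). Their median was 0.07, and 4 had an unadjusted edgeR p under 0.05 (17.4%, beside 5.2% of all tested genes). The groups did not overlap for 5 in the higher direction, beside 5.94% of all tested genes, and for 1 in the lower, beside 4.83%. Together these were 26.1% of the 23, beside 10.8% of all tested genes. The autophagy gene Dram1 was at 2.25, 2.09 and 1.81 CPM in the BSA libraries and 2.98, 2.89 and 4.06 CPM in the rhMG53 libraries (0.67, SE 0.199, edgeR adjusted p = 0.935). Zfp365, a zinc finger gene, was at 134.9 ± 3.25 and 119.5 ± 8.59 CPM (-0.18, SE 0.0653, edgeR adjusted p = 0.940). The other 2, which the rule for naming genes did not cover and which were chosen after their values were seen, were the leucine sensor gene Sesn2 (0.23) and the stress cytokine gene Gdf15 (0.33). Cdkn1a was at 2069 ± 60.9 CPM in the BSA libraries and 2162 ± 109.1 CPM in the rhMG53 libraries (0.06, interval -0.08 to 0.21).

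Of 20 damage sensing and checkpoint genes 10 had positive and 10 negative log2 fold changes, with 0 at an unadjusted p under 0.05, and the lowest p were those of Hus1 (0.20), part of a DNA clamp, and H2ax (0.21), the histone variant phosphorylated at breaks. Of 19 tested relatives, partners and modifiers of p53, 9 were positive and 10 negative, with 1 at an unadjusted p under 0.05. That gene was Cdkn2a (0.17, edgeR adjusted p = 0.950), whose ARF product inhibits MDM2, though gene counts do not tell its products apart. The next was the ubiquitin ligase gene Cop1 (-0.09). Of 14 tested BCL2 family and caspase genes 8 were positive, with 0 at that level, and the survival gene Mcl1 was at 0.08. Of 14 other genes of DNA repair and nucleotide supply, 5 were positive and 9 negative, with 0 at that level. They were led by Ercc8 (-0.28) and Ercc6 (-0.16), and share Polh with the list of other targets. The cell cycle genes that p53 lowers through p21 had a median level of 1.06 CPM. Of 8 tested, 6 were negative, with 0 at an unadjusted p under 0.05, led by Cdk1 (-0.41, interval -0.95 to 0.13) and Cdc20 (-0.41, interval -1.09 to 0.27). With 1 library left out the log2 fold change ran from -0.58 to -0.15 for Cdk1, nearest 0 without BSA replicate 2, and from -0.63 to -0.13 for Cdc20, nearest 0 without rhMG53 replicate 1.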

How the data were processed

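RNA was measured in 6 libraries, 3 per group. Libraries were poly(A)-selected and directional, per the labels' protocols. The submitters' processing notes list the build mm10 and the tools STAR, featureCounts and edgeR. The sources used here do not give the annotation, the strand setting or the treatment of multimapping reads. The deposited values are raw gene counts, in whole numbers. Gene IDs were matched to symbols through RefSeq (GRCm38.p6, 25275 IDs) and GENCODE (18 more), and positions are 1-based RefSeq positions.

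Libraries were grouped by their treatment label. Low genes were removed by filterByExpr (at least 10 counts, total at least 15), and counts were scaled by TMM and tested with the quasi-likelihood F test of edgeR 4.0.16 in R 4.3.3, 2-sided, with Benjamini-Hochberg adjustment over the 13769 kept genes and treatment as the only term. All 33 genes were kept. SE is the log2 fold change divided by the square root of F. CPM uses TMM-scaled totals, and marker sums use plain totals. RPKM divides CPM by the union of GENCODE M21 basic exons, which the authors' annotation may not match. Deviations from group means used log2(CPM + 0.5). The test was checked on simulated counts.

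The 33 genes and all lists were chosen with earlier results of these data known. Values in every library were given for genes with an unadjusted p under 0.05, genes whose groups do not overlap, Trp53, Mdm2 and the 2 highest and 2 lowest by CPM, besides some added afterwards. Of each further list the 2 genes of lowest p were named, except that 1 of them, and 1 marker list, are not reported here. Alternatives were RLE, upper quartile and library size scaling, other filters, DESeq2 1.42.0, limma voom (limma 3.58.1), robust moderation, the replicate number as a term and leaving out each library.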

Additional observations from a re-analysis of the deposited data

How the results depend on the processing

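No p53 pathway gene was called under any of the 17 alternatives (lowest adjusted p 0.281), and 15 of the 33 kept the sign of their log2 fold change in all that gave a value. Counts of all called genes, 3 here, were 6 with no filter beyond a total count of 1, 5 with DESeq2, 10 without BSA 3 and rhMG53 2 (chosen, as was the length trend, after seeing the data), and 0 to 4 with 1 library left out. Genes of the 33 at an unadjusted p under 0.05 numbered 1 to 5 with 1 library left out, where 3.7% to 6.08% of all tested genes had such a p. Those without overlap, 4 here, numbered 4 to 11 with 1 library left out, beside 18.6% to 24.0% of all tested genes, and 11 without BSA 3 and rhMG53 2, beside 35.6%, since fewer libraries separate more easily by construction. Replicate numbers are not said to pair libraries, and same-numbered libraries did not all deviate together (correlations 0.19, -0.13 and -0.15), nor did each correlate best with its own number. With the replicate block 0 genes were called in all and Ccng1 was at 0.000410. There 2 of the 33 had an unadjusted p under 0.05, beside 4.42% of all tested genes. Perp, Ddb2, Chek2 and Fas have no value with a mean of at least 5 CPM.

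Signs turned, with causes not tested, for Ccng1 (0.0126), Ei24 (0.00306) and Rrm2b (0.00589) with library size alone, Ccng1 (0.000480) with limma voom, Gadd45b (-0.00285), Pmaip1 (-0.0147) and Tigar (-0.0452) without BSA 3 and rhMG53 2, and Trp53 (-0.00161), Atm (0.0135) and Apaf1 (0.00645) with the length trend removed. With 1 library left out the log2 fold change ran from -0.0385 to 0.141 for Trp53, -0.391 to 0.0156 for Mdm4, -0.0556 to 0.0233 for Ppm1d, -0.187 to 0.0849 for Atm, -0.133 to 0.0946 for Chek2, -0.0660 to 0.0418 for Ccng1, -0.0327 to 0.0978 for Bbc3, -0.125 to 0.0799 for Apaf1, -0.111 to 0.0144 for Fas, -0.14 to 0.0151 for Eda2r, -0.0385 to 0.00853 for Ei24, -0.0631 to 0.0849 for Trp53inp1, -0.0860 to 0.0514 for Rrm2b, -0.0899 to 0.156 for Polk, -0.0285 to 0.0543 for Xpc and -0.0427 to 0.0611 for Tigar.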
